A study of Homo sapiens with 6 samples.

Results

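ATP-binding cassette (ABC) transporters were examined in A2780 ovarian cancer cells after treatment with the MTH1 inhibitor TH588. The members were all genes of the deposited count table whose identifier mapped to a protein-coding symbol made of ABC, a letter from A to G, and digits. This gave 45 genes on 17 chromosomes among the 58336 genes of the table. The symbol alone decided membership, while this rule and the role groups used below were set with earlier results of these data known. RNA-seq was performed on A2780, a human ovarian carcinoma line, after 48 h in the vehicle DMSO or in 6 µM TH588 (TH-588 in the sample labels), a small molecule that inhibits the Nudix hydrolase MTH1 and arrests cells in mitosis. Each treatment had 3 libraries, lettered A to C, from independent experiments, and all 6 came from the same unmodified line. TH588 at 6 µM for 48 h was the only condition compared with vehicle here.

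Proteins of the ABC superfamily bind and hydrolyse ATP, and most use it to move lipids, metabolites, peptides or drugs across membranes. Subfamilies B, C and G include the pumps known for carrying anticancer drugs out of tumor cells, subfamily A and parts of B and G move sterols and phospholipids, and subfamily D serves peroxisomes and lysosomes. Members of subfamilies E and F do not span membranes and act on ribosomes. ABC transporters that carry sterols out of cells are known targets of the liver X receptors (LXRs), nuclear receptors that respond to oxysterols and bind DNA together with retinoid X receptors.

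The 6 libraries held 28537837 to 99074175 counts, the smallest total being in TH588 replicate A and the next smallest 77634048. In TH588 replicate A the most abundant gene, the small nucleolar RNA *SNORD3A*, took 21.94% of the total, while it took between 7.68% and 12.95% elsewhere. Levels are given as CPM, the count scaled to a common library size of 1000000 after TMM normalization. The floor of 3 counts corresponded to 0.0276 to 0.0365 CPM in those libraries and to 0.112 CPM in TH588 replicate A, and it covers counting error only. Of 10 ovarian epithelial markers, 8 were under 1 CPM in every library, so the labelled tissue was not marked by most of these genes in A2780. Their summed level was 3.89 to 4.63 CPM with DMSO and 10.9 to 12.2 CPM with TH588. Among 14 markers of other cell types, 8 were under 1 CPM in every library, and *COL3A1* made up most of the sum of 1586 to 1916 CPM with DMSO and 1878 to 2617 CPM with TH588. The part of either list in the results was not tested. In bulk RNA, fewer cells with a transcript and less of it per cell cannot be told apart.

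Transcripts of ABC genes changed in both directions after TH588, and the ranges of their summed level overlapped. The members together accounted for 1635, 1612 and 1629 CPM in the DMSO libraries and for 1620, 1690 and 1632 CPM in the TH588 libraries, of which replicate B lay above every DMSO library. Of the 45 members, 37 passed the filter on low counts and 8 did not. Among the 37, 21 changed at an adjusted p under 0.05 in edgeR's quasi-likelihood test, which is 56.8%, and the same was true of 49.6% of all 15844 genes tested. In all, 16 members rose (43.2%), against 24.2% of all genes, and 5 members fell (13.5%), against 25.3%. The values of the groups did not overlap for 27 members (73.0%), against 57.7% of all genes. Of these members 19 were higher with TH588 (28.7% of all genes) and 8 were lower (29.0% of all genes). The median log2 fold change, TH588 against DMSO, was 0.28 over the 37 members and 0.02 over all genes. A change of at least 2-fold that passed the test was present in 7 members that rose, where 9.75% of all genes met that rule, and in 1 that fell (*ABCB10*), where 4.76% did. These counts of rises include *ABCC11*, and the 19 members without overlap on the higher side also include *ABCG8*. Both genes passed the filter only through the TH588 libraries. An exact permutation test of 3 against 3 libraries cannot give a p below 0.1, so the calls rest on the model fitted across all genes.

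**Figure D1:**
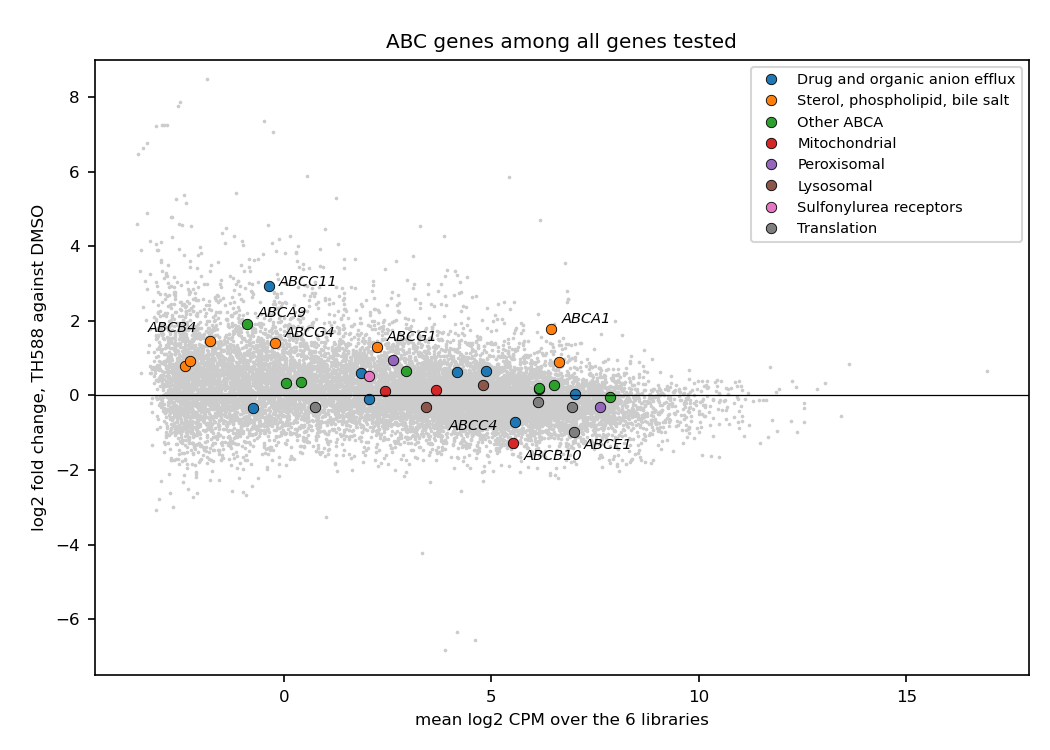
Mean log2 CPM over the 6 libraries (x axis) against log2 fold change, TH588 against DMSO (y axis), for the 15844 genes tested in gray and 35 of the members tested in color by role. Among the more abundant members, *ABCA1* lies highest at 1.79 and *ABCB10* lowest at −1.28.

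The members spanned a wide range of abundance. Per kilobase of exon, the highest levels with DMSO were those of *ABCA3*, at 30.3 ± 2.42 CPM per kb (SD, n = 3), *ABCF1*, at 30.2 ± 1.30, *ABCD3*, at 29.0 ± 1.79, and *ABCE1*, at 26.8 ± 1.96. Neighbors in this order overlapped across the DMSO libraries, and all 4 were apart from *ABCC1*, at 16.8 ± 0.683 CPM per kb. *ABCC1* ranked 6 and *ABCB10* ranked 7 with DMSO. After TH588, *ABCB10* ranked 12, *ABCE1* moved from rank 4 to 7, *ABCA7* from 9 to 6 and *ABCA1* from 14 to 9. The 8 members not tested were *ABCA4*, *ABCA8*, *ABCA13*, *ABCB5*, *ABCB11*, *ABCC3*, *ABCC9* and *ABCC12*, none with more than 8 counts in any library. *ABCB5* and *ABCC12* had 0 counts in all 6 libraries, which allows a level up to the floors given above. The 2 members *ABCC11* and *ABCG8* passed the filter only through the TH588 libraries, so they could enter the test only on the higher side. With at least 10 counts required in each library, which leaves both out, 34 members were tested, of which 15 rose and 5 fell. Under that rule 7446 of all 13452 genes tested were called, and 49.7% of those were higher.

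**Figure D2:**
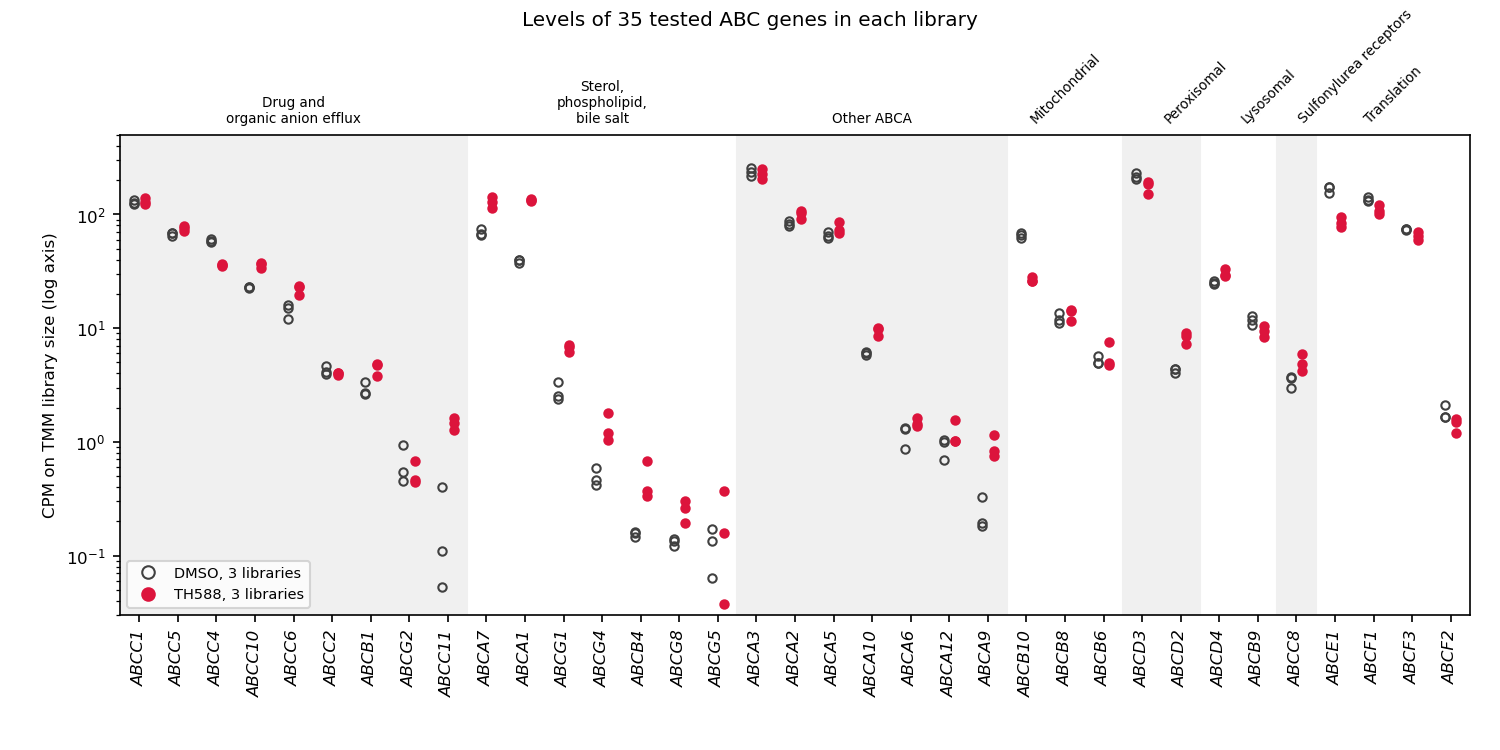
Level of 35 tested members in CPM (log axis, not scaled to length) in each of the 3 DMSO libraries (open circles) and 3 TH588 libraries (filled circles), grouped by role. *ABCA1*, *ABCB10* and *ABCE1* show wide gaps between the groups, and the scarce *ABCG5* shows a wide spread within them.

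Genes for the export of sterols, phospholipids and bile salts included the largest rise among the 18 members above 10 CPM in both groups, that of *ABCA1*. Of the 8 members in this group, 7 were tested and 5 rose (*ABCA1*, *ABCA7*, *ABCB4*, *ABCG1* and *ABCG4*), and none fell, while 24.2% of all genes rose and 25.3% fell. The median log2 fold change of the 7 was 1.29, against 0.02 over all genes. *ABCA1* (ENSG00000165029, chr9:104781002-104928237 on GRCh38, minus strand) encodes the transporter that loads cholesterol and phospholipid onto apolipoprotein A-I. The 250 bases before its RefSeq start (GRCh38.p14, chr9:104928156-104928405, minus strand) are shown because of that rise and because they carried 4 of the motifs searched. The capitals mark, from left to right, GC boxes and the E-box, a further GC box, a DR4 match and the TATA box.

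ABCA1: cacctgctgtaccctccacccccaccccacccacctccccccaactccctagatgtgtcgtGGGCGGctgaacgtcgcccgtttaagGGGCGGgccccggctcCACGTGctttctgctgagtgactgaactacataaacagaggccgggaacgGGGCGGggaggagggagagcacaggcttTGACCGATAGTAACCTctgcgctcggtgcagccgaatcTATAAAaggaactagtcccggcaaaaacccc

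In the 3 DMSO libraries *ABCA1* was at 39.8, 39.8 and 37.1 CPM, and with TH588 it was at 130.7, 136.6 and 135.2 CPM. All TH588 values lay far above all DMSO values, with little spread in either group. The mean rose from 38.9 ± 1.54 to 134.1 ± 3.04 CPM (SD, n = 3), a 3.45-fold increase (log2 fold change 1.79, SE 0.08, 95% interval 1.62 to 1.95, adjusted p = 1.62e-08, edgeR). *ABCG1* (ENSG00000160179, chr21:42199689-42297244), which passes cholesterol to high-density lipoprotein, was at 3.37, 2.51 and 2.37 CPM with DMSO and at 6.17, 6.82 and 7.12 CPM with TH588. The groups did not overlap, and the log2 fold change was 1.29 (SE 0.16, adjusted p = 3.08e-05, edgeR).

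*ABCA7*, a phospholipid transporter related to ABCA1, was the highest gene of this group per kb with DMSO, at 8.24 ± 0.571 CPM per kb against 3.43 ± 0.136 for *ABCA1*. Its levels with DMSO were 74.4, 66.8 and 65.6 CPM. They reached 114.6, 143.6 and 129.4 CPM with TH588, a log2 fold change of 0.91 (SE 0.10, adjusted p = 9.53e-06, edgeR). The remaining risers were scarce. *ABCG4*, a relative of ABCG1 that also exports sterols, had 48, 38 and 39 counts with DMSO and 48, 112 and 99 with TH588, or 0.584, 0.461 and 0.416 CPM against 1.79, 1.03 and 1.19 CPM (log2 fold change 1.41, SE 0.30, adjusted p = 0.00181, edgeR). *ABCB4*, which moves phosphatidylcholine into bile in liver, had 12 to 15 counts per DMSO library and 18, 36 and 31 with TH588. Its levels were 0.146, 0.158 and 0.160 CPM against 0.673, 0.331 and 0.371 CPM, the highest being in the shallow TH588 replicate A (log2 fold change 1.47, SE 0.45, adjusted p = 0.0171, edgeR). Without that library the log2 fold change was 1.19 and the adjusted p was 0.0699. The partners *ABCG5* and *ABCG8*, which form the sterol pump of liver and intestine, did not pass the test. *ABCG8* had 11, 10 and 13 counts with DMSO and 7, 21 and 25 with TH588 (log2 fold change 0.91, 95% interval −0.16 to 1.98, adjusted p = 0.144, edgeR), and for *ABCG5* the interval ran from −0.68 to 2.23.

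Regulators of ABC genes, not only of the sterol exporters, and other LXR targets were examined in a pair of lists. Of 13 regulators of ABC genes, nuclear receptors together with *AHR* and its partner *ARNT*, 10 were tested, 6 rose and 2 fell, against 24.2% and 25.3% of all genes. Their median log2 fold change was 0.38, and *ARNT*, which is not a nuclear receptor, was among the 6. *NR1H3*, which encodes LXRα, was at 2.75, 2.34 and 2.37 CPM with DMSO and at 5.19, 4.26 and 4.43 CPM with TH588 (log2 fold change 0.89, SE 0.15, adjusted p = 0.000417, edgeR). *VDR*, the vitamin D receptor, fell from 1.39, 1.70 and 2.64 CPM to 0.785, 0.910 and 0.539 CPM (log2 fold change −1.36, adjusted p = 0.00226, edgeR). *NR1H2*, which encodes LXRβ, and *RXRA*, a retinoid X receptor, did not pass the test, with log2 fold changes of −0.12 and −0.11. *RXRB*, another retinoid X receptor, rose, from 12.5, 11.6 and 12.2 CPM to 20.9, 18.1 and 16.98 CPM (log2 fold change 0.62, adjusted p = 0.000518, edgeR). Of 10 LXR target genes that are not ABC transporters, 9 were tested, 5 rose (*APOE*, *SMPDL3A*, *NR1H3*, *SCD* and *LPCAT3*) and none fell, against 24.2% and 25.3% of all genes. Their median log2 fold change was 0.35, and *NR1H3* is counted in both lists. The lipid synthesis genes *SREBF1* and *FASN* did not pass the test, with log2 fold changes of 0.15 and 0.04, nor did *MYLIP*, at 0.35, or *APOC1*, at 0.06. The largest rise in this list was that of *APOE*, a lipid carrier that accepts exported cholesterol, from 31.6, 27.9 and 35.6 CPM to 95.7, 73.5 and 91.0 CPM (log2 fold change 1.45, adjusted p = 1.1e-06, edgeR).

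**Figure D3:**
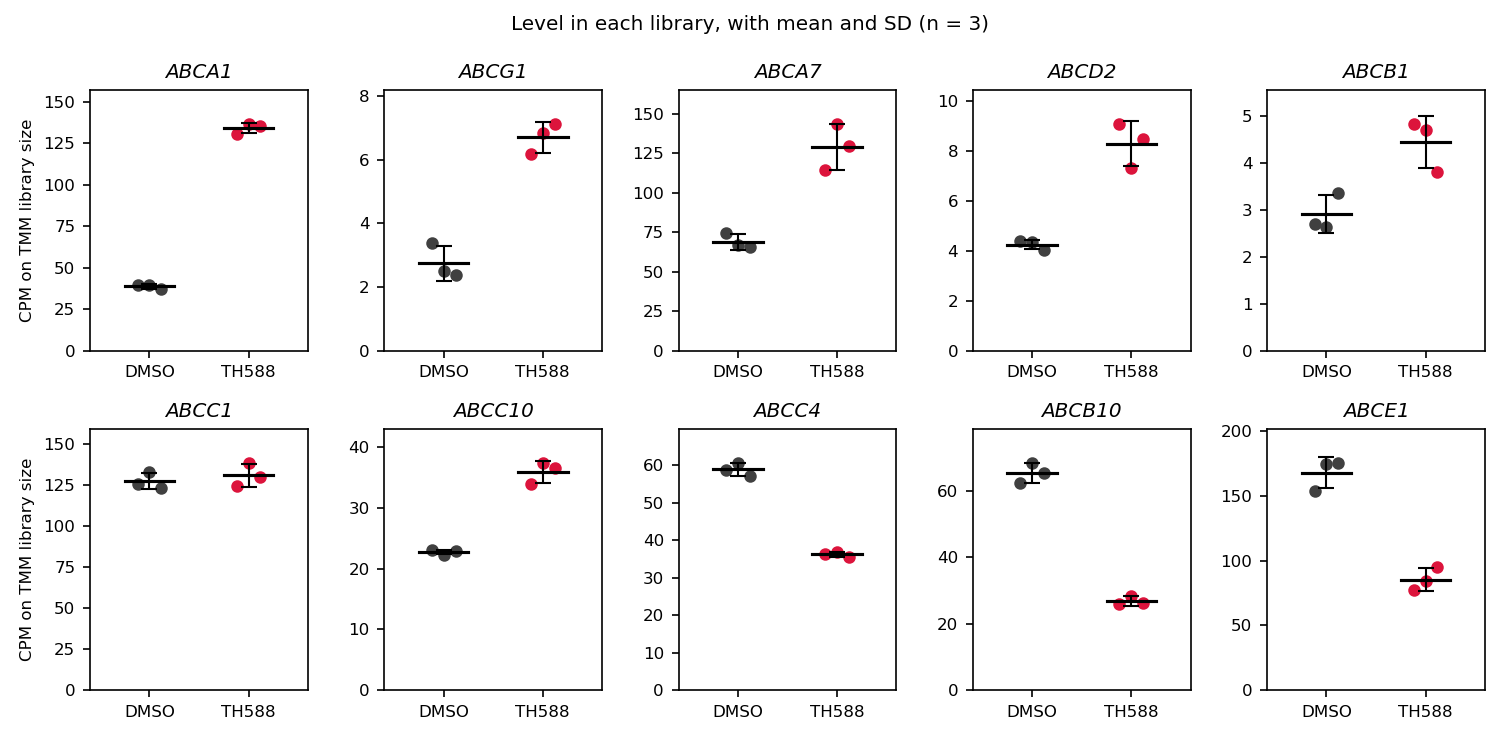
Levels in CPM, scaled to the TMM library size, of 10 named members in each DMSO and TH588 library, with the mean (bar) and SD (n = 3), each panel on its own axis from 0. The groups are apart for every gene shown except *ABCC1*, whose DMSO and TH588 values overlap.

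Genes of drug and organic anion efflux moved in both directions, and the 3 best known pumps differed in their values. Of 12 members in this group, 9 were tested, 4 rose (*ABCB1*, *ABCC6*, *ABCC10* and *ABCC11*) and 1 fell (*ABCC4*), against 24.2% and 25.3% of all genes. The median log2 fold change was 0.16. Of the 4, *ABCC11* could be tested only through its TH588 libraries, and 3 rose with at least 10 counts required in each library. *ABCB1* (ENSG00000085563, chr7:87503633-87713323), which encodes P-glycoprotein, the efflux pump for taxanes, anthracyclines and vinca alkaloids, was at 2.70, 2.64 and 3.36 CPM with DMSO. With TH588 it was at 4.82, 4.70 and 3.81 CPM, above every DMSO library. The mean rose 1.52-fold from 2.90 ± 0.400 to 4.44 ± 0.551 CPM (log2 fold change 0.61, SE 0.16, adjusted p = 0.00781, edgeR).

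*ABCC1*, which encodes the multidrug resistance protein MRP1, an exporter of glutathione conjugates, was at 16.8 ± 0.683 CPM per kb with DMSO, against 0.4999 ± 0.0690 for *ABCB1*. Its levels overlapped, at 125.5, 133.1 and 123.3 CPM with DMSO and 124.3, 138.2 and 130.0 CPM with TH588. The log2 fold change was 0.04 with a 95% interval of −0.13 to 0.21 (adjusted p = 0.699, edgeR). *ABCG2*, which encodes the breast cancer resistance protein, had 77, 37 and 51 counts with DMSO and 18, 50 and 37 with TH588. It did not pass the test, and the 95% interval of its log2 fold change, −1.14 to 0.46, spanned changes in either direction (adjusted p = 0.465, edgeR).

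*ABCC4* (ENSG00000125257, chr13:95019829-95301475) encodes MRP4, an exporter of cyclic nucleotides and prostaglandins, and was the only efflux member that fell. It was at 58.9, 60.6 and 57.3 CPM with DMSO and at 36.3, 36.9 and 35.6 CPM with TH588. The groups were widely separated relative to their spread, 58.9 ± 1.67 against 36.2 ± 0.661 CPM (log2 fold change −0.70, SE 0.08, adjusted p = 1.08e-05, edgeR). The 250 bases before its RefSeq start (GRCh38.p14, chr13:95301452-95301701, minus strand) are shown as those of a member that fell, with the ETS motif in capitals.

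ABCC4: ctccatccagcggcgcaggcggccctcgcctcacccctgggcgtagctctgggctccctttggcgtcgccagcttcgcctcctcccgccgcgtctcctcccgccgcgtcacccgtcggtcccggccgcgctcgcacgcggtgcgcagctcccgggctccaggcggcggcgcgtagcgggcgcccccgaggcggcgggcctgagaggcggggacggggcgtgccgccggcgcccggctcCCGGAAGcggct

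*ABCC10*, which encodes MRP7, rose from 23.1, 22.3 and 22.9 CPM to 34.0, 37.4 and 36.6 CPM (log2 fold change 0.66, SE 0.08, adjusted p = 3.3e-05, edgeR). *ABCC11* (ENSG00000121270, chr16:48166910-48247568), which encodes MRP8, the transporter that sets earwax type, is described by its values alone, since it entered the test only through the TH588 libraries. Its counts were 33, 9 and 5 with DMSO and 43, 137 and 123 with TH588, or 0.402, 0.109 and 0.0534 CPM against 1.61, 1.26 and 1.47 CPM. DMSO replicate A stood above the other DMSO libraries but below every TH588 library. The fitted log2 fold change was 2.94 (SE 0.52), and 4.16 without DMSO replicate A. For *ABCC6*, an exporter linked to tissue calcification, levels were 14.9, 15.9 and 12.1 CPM against 19.4, 23.5 and 23.0 CPM (log2 fold change 0.62, adjusted p = 0.00122, edgeR). Reads of *ABCC6* may be divided with its near-identical pseudogenes *ABCC6P1* and *ABCC6P2*, which had 85 to 336 and 22 to 134 counts per library, so its value is uncertain. *ABCC5* and *ABCC2* did not pass the test, with log2 fold changes of 0.16 and −0.09. In the list of 19 genes of glutathione supply and conjugation, which make substrates for MRP1 and its relatives, 18 were tested, 9 rose and 4 fell, against 24.2% and 25.3% of all genes. The extremes were *GSTZ1*, a glutathione transferase, at a log2 fold change of 0.98 (adjusted p = 6.84e-06, edgeR), and *GCLM*, a subunit of the enzyme limiting glutathione synthesis, at −1.10 (adjusted p = 7.9e-06, edgeR).

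Among the other subfamily A genes, 7 of 10 members were tested, 3 rose (*ABCA2*, *ABCA9* and *ABCA10*) and none fell, against 24.2% and 25.3% of all genes. *ABCA3*, which moves surfactant phospholipid in lung, had the highest mean per kb with DMSO. Its groups overlapped, at 255.4, 217.7 and 235.7 CPM with DMSO and 228.9, 253.2 and 205.0 CPM with TH588 (log2 fold change −0.05, adjusted p = 0.725, edgeR). *ABCA9* and *ABCA10* lie with *ABCA5*, *ABCA6* and *ABCA8* in a cluster that spans 460.0 kb of chromosome 17. *ABCA9* had 15, 27 and 18 counts with DMSO and 31, 81 and 70 with TH588, or 0.183, 0.327 and 0.192 CPM against 1.16, 0.745 and 0.839 CPM (log2 fold change 1.93, SE 0.37, adjusted p = 0.000957, edgeR). *ABCA10* was at 6.02, 6.18 and 5.86 CPM with DMSO and rose at a log2 fold change of 0.65 (adjusted p = 0.000678, edgeR). Within the same cluster *ABCA5* and *ABCA6* did not pass the test, with log2 fold changes of 0.20 and 0.36, and *ABCA8* was not tested. *ABCA2*, a lysosomal lipid transporter of brain, was at 87.8, 79.1 and 81.9 CPM against 103.1, 106.3 and 91.3 CPM (log2 fold change 0.27, adjusted p = 0.018, edgeR), a call lost when DMSO replicate B, DMSO replicate C or TH588 replicate B was left out.

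The mitochondrial members included the largest fall of the superfamily. *ABCB10* (ENSG00000135776, chr1:229516582-229558695), an inner membrane transporter needed for heme synthesis in red cell precursors, was at 62.3, 68.4 and 65.4 CPM with DMSO and at 25.9, 28.4 and 26.1 CPM with TH588. Every TH588 value was far below every DMSO value. The mean went from 65.4 ± 3.05 to 26.8 ± 1.401 CPM (log2 fold change −1.28, SE 0.08, adjusted p = 2.21e-07, edgeR). The 250 bases before its RefSeq start (GRCh38.p14, chr1:229558708-229558957, minus strand) are shown because of that fall, with 4 GC boxes in capitals.

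ABCB10: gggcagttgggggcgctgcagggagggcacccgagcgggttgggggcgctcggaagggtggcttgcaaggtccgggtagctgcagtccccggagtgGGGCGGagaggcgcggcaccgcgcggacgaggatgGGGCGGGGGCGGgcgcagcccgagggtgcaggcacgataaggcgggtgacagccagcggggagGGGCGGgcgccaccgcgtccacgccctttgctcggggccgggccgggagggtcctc

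*ABCB8* and *ABCB6*, a porphyrin transporter, did not pass the test. The log2 fold change of *ABCB8* was 0.14 (adjusted p = 0.397, edgeR) and that of *ABCB6* was 0.11 (adjusted p = 0.641, edgeR). The value of *ABCB6* is uncertain, since 54.72% of its exon bases are shared with another annotated gene.

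Peroxisomal members, which import fatty acyl-CoA for oxidation, moved in both directions. *ABCD2*, a transporter of long fatty acyl-CoA, rose from 4.38, 4.34 and 4.05 CPM to 9.08, 7.32 and 8.48 CPM (log2 fold change 0.96, SE 0.13, adjusted p = 6.36e-05, edgeR). *ABCD3*, which encodes PMP70, went the other way, at 205.8, 215.5 and 232.3 CPM with DMSO and 192.3, 152.3 and 185.4 CPM with TH588. The separation of *ABCD3* was narrow (log2 fold change −0.30, SE 0.10, adjusted p = 0.0212, edgeR), and its call was lost without DMSO replicate B, DMSO replicate C or TH588 replicate B.

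Of the lysosomal members, *ABCD4*, which carries cobalamin out of lysosomes, was at 24.8, 24.4 and 25.8 CPM with DMSO and at 29.1, 33.3 and 28.5 CPM with TH588 (log2 fold change 0.28, SE 0.09, adjusted p = 0.0209, edgeR). That call was lost without DMSO replicate A, DMSO replicate B or TH588 replicate B. *LMBRD1*, which encodes the lysosomal partner of ABCD4, rose from 9.13, 11.2 and 10.3 CPM to 26.0, 22.6 and 24.1 CPM (log2 fold change 1.24, adjusted p = 2.5e-06, edgeR). *ABCB9*, a lysosomal peptide transporter, did not pass the test, at a log2 fold change of −0.31 (adjusted p = 0.0593, edgeR), and 24.54% of its exon bases are shared with genes on the opposite strand. The library kit did not mark strand, so reads from such shared bases cannot be assigned between the genes. *ABCC8*, which encodes the sulfonylurea receptor SUR1 of ATP-sensitive potassium channels, rose from 3.75, 3.65 and 2.95 CPM to 5.90, 4.20 and 4.79 CPM (log2 fold change 0.51, SE 0.16, adjusted p = 0.0218, edgeR), a call lost without DMSO replicate C or TH588 replicate A. *ABCC9*, which encodes SUR2, had 0, 2 and 0 counts with DMSO and 2, 8 and 8 with TH588 and was not tested.

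Both translation subfamilies had members that fell and none that rose. Of their 4 members, *ABCE1* and *ABCF1* fell, while 24.2% of all genes rose and 25.3% fell. The median log2 fold change was −0.31, against 0.02 over all genes. *ABCE1* (ENSG00000164163, chr4:145097932-145129179) encodes the factor that splits ribosomes after termination. It was at 153.8, 174.9 and 175.2 CPM with DMSO and at 76.9, 83.9 and 94.8 CPM with TH588, well apart. The mean went from 168.0 ± 12.3 to 85.2 ± 8.99 CPM (log2 fold change −0.98, SE 0.10, adjusted p = 4.8e-06, edgeR). Of its exon bases, 11.89% are shared with *ANAPC10* and with *OTUD4*. The 30 bases around the cyclic AMP response element (CRE) of its promoter are shown (GRCh38.p14, chr4:145098202-145098231, plus strand), since *ABCE1* was the only member with that motif, in capitals.

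ABCE1: tcgcagctcaaTGACGTCAtatctccctac

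*ABCF1*, which supports translation initiation, was at 143.1, 131.6 and 135.4 CPM with DMSO and at 100.7, 121.6 and 108.1 CPM with TH588 (log2 fold change −0.31, SE 0.09, adjusted p = 0.0105, edgeR), a call lost without DMSO replicate A or TH588 replicate C. *ABCF3* and *ABCF2* did not pass the test, with log2 fold changes of −0.18 and −0.32. Of the exon bases of *ABCF2*, 45.82% are shared with *ABCF2-H2BK1* on the same strand, which had 0 counts in all 6 libraries, so the value of *ABCF2* is uncertain. Among 19 partner genes of the ABC proteins, 17 were tested, 4 rose and 8 fell, against 24.2% and 25.3% of all genes. *EIF2S1*, the alpha subunit of the initiation factor eIF2 that ABCF1 binds, was the largest fall among them (log2 fold change −0.91, adjusted p = 2.3e-06, edgeR). *ETF1*, the release factor that acts just before ABCE1, also fell, at −0.79.

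**Figure D4:**
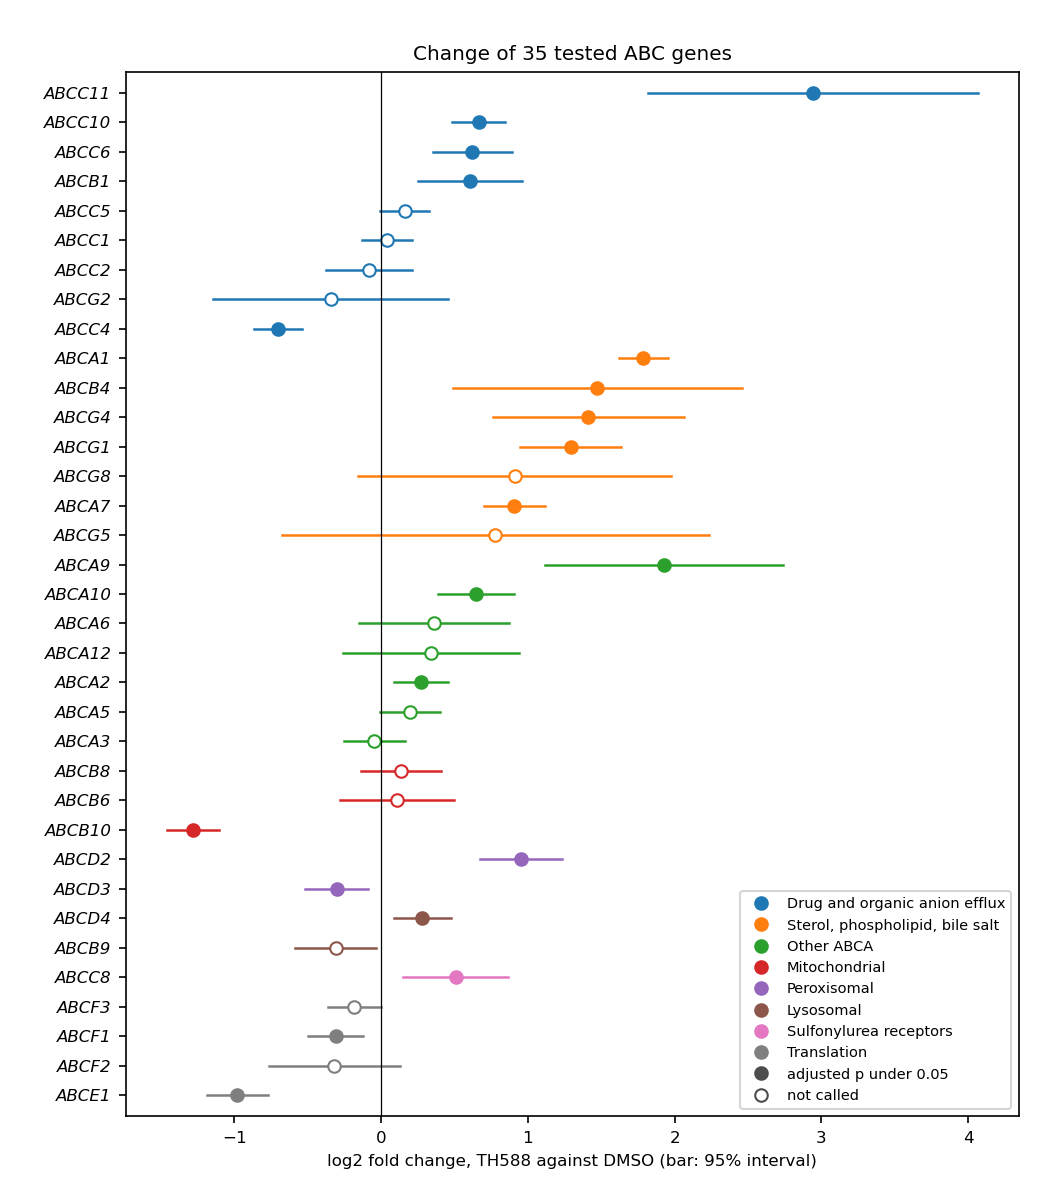
Log2 fold change, TH588 against DMSO, with its 95% interval for 35 members tested, colored by role. Filled points passed the test, 5 of 7 intervals of the sterol, phospholipid and bile salt group lie above 0, and those of *ABCB10*, *ABCC4*, *ABCE1*, *ABCD3* and *ABCF1* lie below it.

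Superfamily genes without an ABC symbol were read from the same fit. *TAP1* and *TAP2*, which together form the peptide transporter that supplies MHC class I, changed in opposite directions. *TAP1* was at 13.3, 12.3 and 13.9 CPM with DMSO and at 61.2, 51.1 and 46.3 CPM with TH588 (log2 fold change 2.00, SE 0.11, adjusted p = 8.35e-08, edgeR). *TAP2* was at 3.01, 2.35 and 2.67 CPM with DMSO and at 1.01, 1.69 and 1.14 CPM with TH588 (log2 fold change −1.02, adjusted p = 0.00202, edgeR). *CFTR*, the chloride channel, had 0 counts in all 6 libraries.

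Some members lie next to each other in the genome. *ABCB1* and *ABCB4* are separated by 23.2 kb on chromosome 7 and both rose. The call of the scarce *ABCB4* was lost without TH588 replicate A. *ABCC1* and *ABCC6*, 5.9 kb apart on chromosome 16, had log2 fold changes of 0.04 and 0.62. Reads of *ABCC6* may be divided with its pseudogenes, so its value is uncertain. *ABCC11* was higher in every TH588 library than in every DMSO library but passed the filter only through the TH588 libraries. *ABCC12*, 10.9 kb away, had 0 counts in every library.

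Promoters were compared in the RefSeq windows of 250 bases before each start, which matched 35 of the 45 members with 53 windows. The E-box, CACGTG, was present in 16.981% of member windows and in 6.34% of all 35116 windows. It was held by 8 members, of which *ABCA1*, *ABCA9* and *ABCC10* rose, *ABCF1* fell, and *ABCA12*, *ABCB6*, *ABCB9* and *ABCG2* were not called. Overlapping windows of *ABCG2* hold the same E-box, so that site enters the share more than once. The DR4 element, the arrangement bound by LXR, was searched as AGGTCA repeated after 4 bases with up to 2 mismatches, and was found in *ABCA1*, *ABCC6* and *ABCD2*, or 7.547% of member windows against 2.03% of all. The 4 windows hold 3 distinct matches, since both windows of *ABCC6* overlap and contain the same match. All of these 3 members rose, as did 43.2% of the members tested and 24.2% of all genes. The value of *ABCC6* is uncertain because of its pseudogenes, and *ABCG1* was among the members without a window. In *ABCA1* the match lies 69 to 54 bases before the start on the strand opposite to the gene. The CRE, TGACGTCA, was in 1.65% of all windows. The ETS motif, CCGGAAG, was in 9.434% of member windows and 8.52% of all, the GC box, GGGCGG, in 47.17% and 42.6%, the TATA box, TATAAA, in 11.321% and 10.7%, and CCAAT in 20.755% and 32.0%. The motif of NRF1 was in 7.547% and 5.07%. RefSeq starts differ from the gene ends of the count table, and the windows of *ABCA1* and *ABCC4* and the bases shown for *ABCE1* reach into the genes as counted. Both strands were searched, overlaps between motifs were allowed, and a match describes letters, not binding. The median GC content was 74.4% in windows of the 5 members that fell, 58.0% in those of 12 members that rose, 64.4% in those not called, and 58.0% in all windows.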

How the data were processed

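Polyadenylated RNA of 6 A2780 libraries was sequenced by the authors, who aligned reads to GRCh38 with TopHat and counted them per gene with featureCounts 1.4.6 (Subread). The deposited values are raw counts, used as they stand. Identifiers were matched to symbols for 57754 of 58336 genes, and all 45 members overlapped the same gene of GENCODE 44. Reads in shared exon bases and near-identical copies can be lost or moved by such counting, and 16 members share some bases.

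Counts were tested with edgeR 4.0.16 in R 4.3.3 (TMM, default filter on low counts, quasi-likelihood test, Benjamini-Hochberg adjusted p under 0.05), comparing 3 TH588 with 3 DMSO libraries without covariates. Total counts per library set the precision, and the filter stood at 0.118 CPM. CPM use the TMM library size. SE is the log2 fold change over the root of F. The procedure was tested on simulated data. Few genes were changed there, in equal number up and down, so that test could not cover normalization where many genes change. Same-lettered libraries did not deviate together (correlations of deviations −0.071, −0.083 and 0.001), so letters were not treated as pairs. Replicates differed beyond sampling noise and were each counted.

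The members and lists were chosen with earlier results of these data known. Genes were named by rule: the 8 largest rises and falls among called members without overlap, *ABCB1*, *ABCC1*, *ABCG2*, *ABCA1* and *ABCG1*, the most abundant gene per role, and the extremes of each list. Others complete their group, and some genes are not reported here. Alternatives were DESeq2 size factors, library size only, DESeq2 1.42.0, no filter, a minimum of 10 counts per library, omission of each library in turn, and a block for the letter. Leaving out small nucleolar RNA genes and giving levels as CPM per kb, not TPM, were chosen after seeing the data. Motif windows came from the RefSeq promoter table.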

Additional observations from a re-analysis of the deposited data

How the results depend on the processing

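Of the 21 members called, 14 were tested and called in the same direction under every alternative. Of these, 11 rose, among them *ABCA1*, *ABCA7*, *ABCB1*, *ABCC10* and *ABCG1*, and 3 fell (*ABCB10*, *ABCC4* and *ABCE1*). *ABCC11* was called wherever it was tested, but it passed the main filter only through the TH588 libraries. It was not tested with at least 10 counts required in every library. The calls of *ABCA2*, *ABCB4*, *ABCC8*, *ABCD3*, *ABCD4* and *ABCF1* were lost under some alternative. With library size only, in place of TMM, the median change over all genes (log2) shifted from 0.02 to 0.13 and that of the members to 0.39, members called lower dropped from 5 to 3, and the lower counts were 0 for peroxisomal, 1 for translation and 1 for nuclear receptor genes. Of all genes called, 60.4% were then higher, against 48.9% with TMM. Members' median was 0.35 with DESeq2, 0.37 with no filter and 0.26 with at least 10 counts in every library.

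Some members that were not called changed sign. With library size only, *ABCA3* was at 0.057 and *ABCC2* at 0.025. With 1 library left out, *ABCA3* ranged from −0.124 to 0.049 (above 0 without DMSO replicate A, 0.035, or TH588 replicate C) and *ABCB6* from −0.104 (without TH588 replicate A) to 0.232. *ABCC1* ranged from −0.002 (without TH588 replicate B) to 0.086, *ABCG2* from −0.553 to 0.046 (without DMSO replicate A) and *ABCG5* from −0.060 (without TH588 replicate C) to 1.109. The cause of these changes was not tested.

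With 1 library left out, the members' median ranged from 0.245 to 0.32, members called higher from 14 to 16 and lower from 4 to 6. Peroxisomal genes called lower ranged from 0 to 1, lysosomal genes higher and lower from 0 to 1 each, sulfonylurea receptors higher from 0 to 1, translation genes lower from 1 to 3, nuclear receptors lower from 1 to 2 and other LXR targets higher from 3 to 5. With the replicate letter as a block, 15 members were called higher and 5 lower, lysosomal genes higher went from 1 to 0 (*ABCD4*, adjusted p = 0.0507, edgeR), and no other member lost its call. Leaving out small nucleolar RNA genes, chosen after seeing the data, changed no call of a member. The values of *ABCG5* and *ABCG8* rest on few counts per library.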
